A study of Coprinopsis cinerea with 10 samples.

Results

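The galectins CGL1 (CC1G_05003), CGL2 (CC1G_05005) and CGL3 (CC1G_00723) of the ink cap mushroom Coprinopsis cinerea were followed through fruiting body development. These 3 genes were taken by locus tag from the 13320 genes on the array, where their products are listed as galectin-1, galectin-2 and CGL3 lectin. Transcripts were measured on 10 one-colour NimbleGen arrays, with 2 biological replicates of each of 5 stages. The stages were mycelium, fruiting initials of about 2 mm, stage 2 primordia of about 1 cm, young fruiting bodies of about 2 cm, and the fully opened cap of mature fruiting bodies of about 4 cm. All samples came from the same dikaryon, a strain with 50% Okayama-7 origin that was crossed back to the sequenced Okayama-7 monokaryon for 5 generations and is about 98.44% homologous to it. A mycelium replicate pooled 5 plates grown at 37 °C, and a replicate of any later stage held 4 to 5 structures grown at 25 °C with 12 h of light and 12 h of dark. The mature sample was cap tissue alone, whereas the labels name no part of the fruiting body for the earlier stages, so stage and tissue cannot be told apart there; temperature and light likewise separate mycelium from the later stages.

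Galectins are small lectins that bind beta-galactosides and are best known from animals. In C. cinerea CGL1 and CGL2 are closely related fruiting body proteins of this family. CGL2 is toxic to the nematode Caenorhabditis elegans, where it binds a galactose-containing glycan, and fungal lectins of this kind are regarded as a defence against animals that graze on fungi. CGL3 has the galectin fold but binds chitin fragments instead of lactose. In the RefSeq gene order of assembly CC3 the CGL1 and CGL2 genes are direct neighbours, with no annotated gene between them, and CGL3 lies elsewhere.

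All 3 galectins reached their highest level in fruiting initials and their lowest in the mature cap. They differed in mycelium, where CGL1 was well below its level in initials, CGL2 was moderately below it, and CGL3 was already near its highest level. Levels are RMA intensities, in which RMA (robust multi-array average) combines 5 probes per block and each value is the geometric mean of 2 probe blocks on the array. Differences between stages are log2 changes ± SE from limma, fitted on all 13320 genes with Benjamini-Hochberg adjustment and n = 2 arrays per stage. The test over all stages passed for CGL1 (adjusted p = 1.34e-08), CGL2 (adjusted p = 1.91e-07) and CGL3 (adjusted p = 9.66e-06). It passed for 89.8% of all genes, so passing it does not set the galectins apart.

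CGL1 had the widest course of the 3. Its intensity was 3122 and 3252 in mycelium, 15102 and 14686 in initials, 12462 and 13227 in primordia, 10431 and 10337 in young fruiting bodies, and 704 and 622 in mature caps. The ranges of the 5 stages did not overlap, and the 2 cap arrays lay below every other array. CGL1 rose 4.67-fold in initials relative to mycelium, a log2 change of 2.22 ± 0.0626 (adjusted p = 1.82e-07), when 37.5% of all genes were called higher in that comparison. A larger rise was measured for 349 of the 13320 genes. It fell by 3.97 ± 0.0626 on the log2 scale in mature caps relative to young fruiting bodies (adjusted p = 1.25e-08), a level 15.7-fold lower, when 40.7% of genes were called lower. A lower change was measured for 105 genes in that step. The mature cap was also below mycelium, by a log2 change of -2.27 ± 0.0626 (adjusted p = 6.69e-08). The span of its stage means was 4.49 log2 units, and 4.03% of genes had a wider one.

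**Figure D1:**
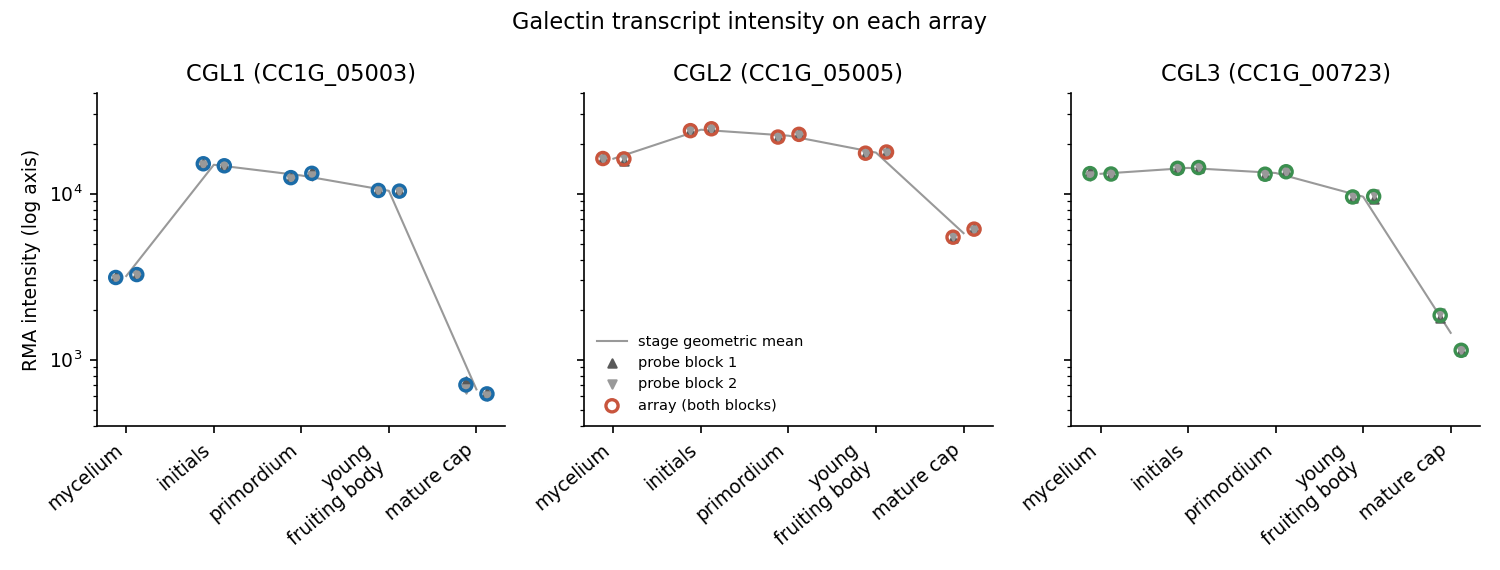
RMA intensity (log axis) of CGL1, CGL2 and CGL3 on each of the 10 arrays, by stage from mycelium to mature cap. Circles are arrays, triangles the 2 probe blocks of each array and lines join the geometric means of the stages; CGL1 was at 3122 and 3252 in mycelium while CGL2 was at 16241 and 16157 there, and all 3 genes were lowest in the mature cap.

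CGL2 was bright in every stage and moved less. Its intensity was 16241 and 16157 in mycelium, 23901 and 24534 in initials, 21872 and 22709 in primordia, 17489 and 17775 in young fruiting bodies, and 5460 and 6103 in mature caps. As for CGL1, the arrays of one stage did not overlap those of another. CGL2 rose 1.49-fold in initials relative to mycelium, a log2 change of 0.58 ± 0.0532 (adjusted p = 5.99e-05). In mature caps it fell by 1.61 ± 0.0532 relative to young fruiting bodies (adjusted p = 2.29e-07), a level 3.05-fold lower, and it was below mycelium by a log2 change of -1.49 ± 0.0532 (adjusted p = 2.37e-07). Its span of 2.07 log2 units was exceeded by 22.3% of genes. The highest intensity of any gene lay between 31397 and 34441 per array, close to the CGL2 level in initials. Whether signals of this brightness are compressed was not tested.

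CGL3 was high before fruiting began. Its intensity was 13176 and 13104 in mycelium, 14183 and 14334 in initials, 13066 and 13522 in primordia, 9534 and 9606 in young fruiting bodies, and 1847 and 1138 in mature caps. Primordia overlapped mycelium, the other stages did not overlap each other, and the 2 cap arrays stood far apart. In mature caps CGL3 fell by 2.72 ± 0.195 relative to young fruiting bodies (adjusted p = 1.09e-05), a level 6.60-fold lower. Relative to mycelium the cap was 9.06-fold lower, a log2 change of -3.18 ± 0.195 (adjusted p = 4.06e-06), when 40.0% of genes were called lower. This was the largest cap-to-mycelium difference of the 3 galectins, whereas CGL1 had the largest step from the young fruiting body to the cap. Initials differed from mycelium by 0.12 ± 0.195 (adjusted p = 0.618), with a 95% interval of -0.35 to 0.58.

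**Figure D2:**
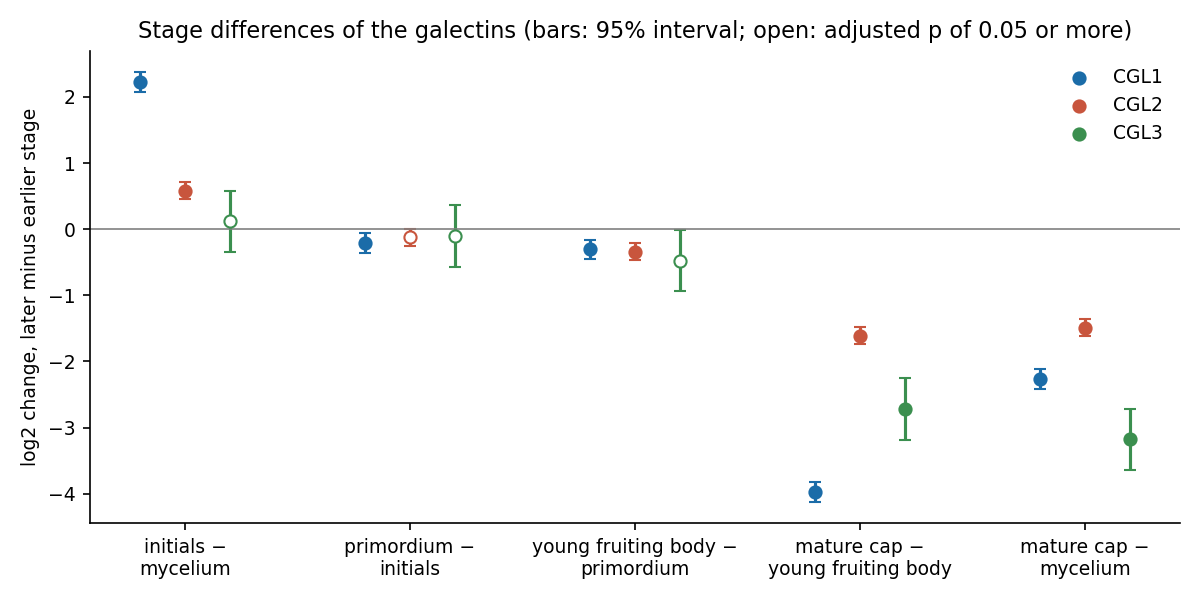
Log2 change of CGL1, CGL2 and CGL3 (later minus earlier stage) in the 4 steps of development and between mature cap and mycelium. Points are limma estimates, bars their 95% intervals and open points missed the adjusted p threshold of 0.05; all 3 galectins passed in both comparisons of the mature cap, with changes from -3.97 to -1.49.

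Between initials and young fruiting bodies the galectins differed by small steps. From initials to primordia the log2 change was -0.21 ± 0.0626 for CGL1 (adjusted p = 0.0288), -0.12 ± 0.0532 for CGL2 (adjusted p = 0.109) and -0.10 ± 0.195 for CGL3 (adjusted p = 0.71), so 1 of the 3 was called lower, when 24.5% of all genes were. The call for CGL1 was lost without replicate 1 or 2 of the initials, replicate 1 of the primordia, or replicate 1 or 2 of the young fruiting bodies (adjusted p = 0.0512 to 0.138), and CGL2 and CGL3 passed without either mature cap array (adjusted p = 0.0197 and 0.0235). From primordia to young fruiting bodies CGL1 changed by -0.31 ± 0.0626 (adjusted p = 0.007) and CGL2 by -0.34 ± 0.0532 (adjusted p = 0.00228), when 24.8% of genes were called lower. CGL3 changed by -0.47 ± 0.195 (adjusted p = 0.0856), and 8.92% of genes had a lower change. Across both steps, young fruiting bodies were lower than initials for CGL1 (-0.52 ± 0.0626, adjusted p = 0.000333), CGL2 (-0.46 ± 0.0532, adjusted p = 0.000282) and CGL3 (-0.58 ± 0.195, adjusted p = 0.0364), when 32.8% of genes were. The call for CGL3 was lost without any of the 8 arrays that are not mature caps (adjusted p = 0.0549 to 0.117).

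The order of the stages was the same for CGL1 and CGL2 and differed for CGL3. For CGL1 it was initials, primordia, young fruiting bodies, mycelium and mature cap, and every neighbour in it differed, with the limit just given for the first pair. Primordia exceeded mycelium by 2.01 ± 0.0626 (adjusted p = 2.31e-07), when 39.4% of genes were called higher, and young fruiting bodies exceeded it by 1.70 ± 0.0626 (adjusted p = 4.25e-07), when 40.6% were. For CGL2 primordia exceeded mycelium by 0.46 ± 0.0532 (adjusted p = 0.000188), but young fruiting bodies exceeded mycelium by only 0.12 ± 0.0532 (adjusted p = 0.0752), so neither this pair nor initials and primordia were separated. Without either mature cap array the difference of 0.12 passed (adjusted p = 0.0111), as it did under 4 other settings (adjusted p = 0.0153 to 0.0494). For CGL3 mycelium came between primordia and young fruiting bodies. Primordia and mycelium differed by 0.017 ± 0.195 (adjusted p = 0.945), and young fruiting bodies minus mycelium was -0.46 ± 0.195 (adjusted p = 0.07), which passed without either mature cap array (adjusted p = 1.68e-05). The cap was the lowest stage of each gene by a wide margin: against initials the log2 change was -4.49 for CGL1, -2.07 for CGL2 and -3.30 for CGL3, and against primordia it was -4.28, -1.95 and -3.20. All 6 of these changes passed (highest adjusted p = 4.49e-06), when 40.4% and 41.6% of genes were called lower.

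Both blocks of probes and most replicate pairs gave nearly the same galectin values. The difference between blocks had a median size of 0.040 log2 units for CGL1, 0.030 for CGL2 and 0.021 for CGL3 over the 10 arrays, against 0.065 over all genes and arrays. The all-gene value was not matched for intensity and includes genes near background. Its largest size was 0.17 for CGL1, on replicate 1 of the mature cap. In the 4 earlier stages the replicates of a galectin differed by 0.0075 to 0.086 log2 units, and 38.3% to 89.9% of genes differed more. In the mature cap they differed by 0.18 for CGL1, 0.16 for CGL2 and 0.70 for CGL3, and only CGL2 was higher in replicate 2.

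The cap difference of CGL3 was present in both blocks, at 1783 and 1130 in block 1 and 1914 and 1145 in block 2 for replicates 1 and 2. A replicate difference in the cap of at least this size was found for 224 genes (1.68%), CGL3 included. Of the 1975 genes called at least 2-fold lower in the cap than in the young fruiting body, 933 (47.2%) were higher in cap replicate 1, as were 46.5% of all 13320 genes. The SE of 0.195 for CGL3 in every comparison contains this pair, since all stages share 1 estimate of the spread. With only the arrays of both stages in the fit, CGL3 was higher in initials than in mycelium by 0.12 ± 0.0223 (adjusted p = 0.0152) and lower in young fruiting bodies than in primordia by 0.47 ± 0.0365 (adjusted p = 0.00396). Without either replicate of the mature cap the adjusted p of these differences was 0.00844 and 0.000102.

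The galectin signals also changed unequally when compared within each array. The level of one probe set cannot be set against another, but a within-array log2 difference that shifts between stages shows that the signals did not change by the same factor. The part of compressed bright signals, or of signal shared between CGL1 and CGL2, in such shifts was not tested. CGL1 minus CGL2 was -2.35 ± 0.047 in mycelium (SD, n = 2), -0.70 ± 0.055 in initials, -0.80 ± 0.022 in primordia, -0.76 ± 0.026 in young fruiting bodies and -3.12 ± 0.24 in mature caps. CGL1 thus gained 1.64 log2 units on CGL2 at the step to initials, shifted by less than 0.1 units in either of the next steps, and shifted by -2.36 units at the step to the cap. CGL1 minus CGL3 shifted by 2.11 units at the step to initials and by -1.25 at the step to the cap. CGL2 minus CGL3 gained 0.46 units at the first step and 1.11 at the last, where its SD was 0.61.

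Each difference was tested for its spread between stages over all 945 ways to split the 10 arrays into 5 pairs. This exact permutation test, one-sided, gave p = 0.00212 for CGL1 minus CGL2, p = 0.00106 for CGL1 minus CGL3 and p = 0.00106 for CGL2 minus CGL3 (Benjamini-Hochberg adjusted over the 3 pairs: 0.00212, 0.00159 and 0.00159). The smallest p this design allows is 0.00106. No other pairs of genes were tested in this way, so these results do not set the galectins apart. Of all genes, 89.8% passed the limma test over the 5 stages. For the step between any 2 stages, with 2 arrays each, no such test can pass 0.05.

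**Figure D3:**
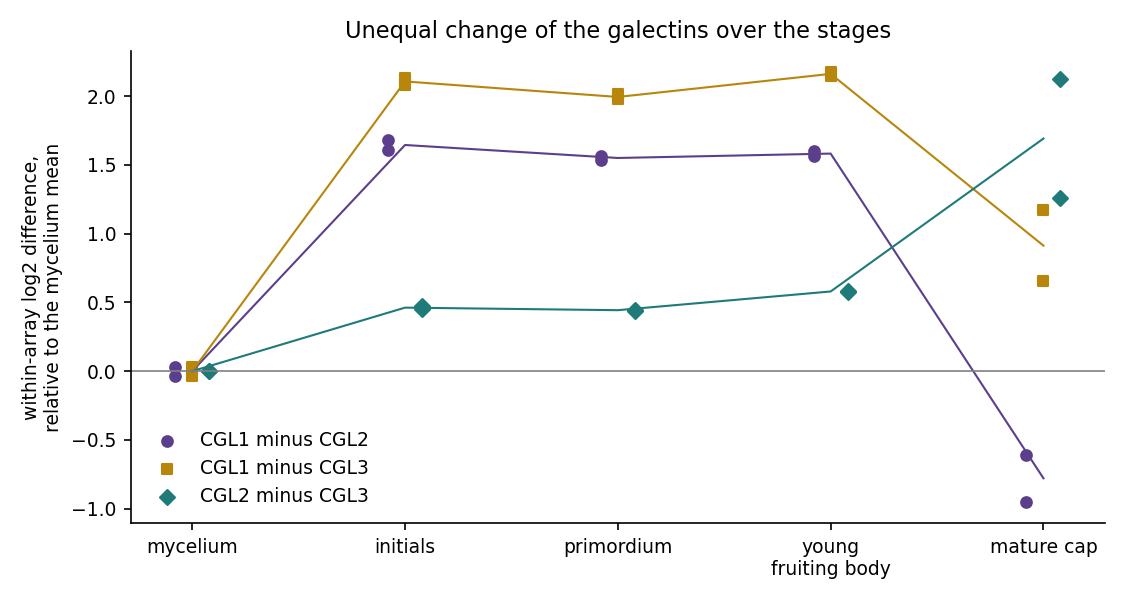
Within-array log2 differences between CGL1, CGL2 and CGL3, by stage from mycelium to mature cap, with each pair set to 0 at its mycelium mean. Points are the 2 arrays of a stage and lines join stage means; CGL1 minus CGL2 shifted by 1.64 in initials and by -2.36 from the young fruiting body to the mature cap.

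Over the 10 arrays the log2 levels correlated at r = 0.957 for CGL1 and CGL2, 0.871 for CGL1 and CGL3, and 0.956 for CGL2 and CGL3. Without the 2 cap arrays, over the other 8, r was 0.836, -0.0047 and 0.542. These values are descriptions, since the points share arrays and stages. The likeness over all arrays thus rested largely on the low level of the 3 genes in the cap, least so for CGL1 and CGL2.

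Genes with a profile like that of a galectin were sought among 6189 genes whose stage means spanned at least 1 log2 unit and that exceeded 4 times the random-sequence controls in at least 1 stage. Pearson's r with CGL1 was at least 0.95 for 232 of these genes, with CGL2 for 392 and with CGL3 for 437. The 5 nearest to CGL1 had r from 0.998 to 0.999 and were all predicted or hypothetical proteins, led by CC1G_07547 and CC1G_06975. The nearest with a named product were the DNA repair protein RAD5 (CC1G_00528, r = 0.997), an endoplasmic reticulum protein (CC1G_01880, r = 0.996) and an exo-beta-1,3-glucanase (CC1G_08008, r = 0.994), an enzyme class that cuts wall glucan. CGL2 was nearest to a cytochrome P450 (CC1G_01582, r = 0.998), with the mitochondrial chaperone BCS1 (CC1G_11035, r = 0.997) and an oxidoreductase (CC1G_03412, r = 0.996) as the next named products. CGL3 was nearest to the predicted protein CC1G_02591 (r = 0.999), and its nearest named products were a peptidyl-prolyl isomerase (CC1G_07870, r = 0.995), a gene listed for export of polyadenylated RNA (CC1G_07578, r = 0.994) and the small subunit of ribonucleotide reductase (CC1G_00201, r = 0.994), which makes the building blocks of DNA. Among all eligible genes CGL2 ranked 192nd in likeness to CGL1 and CGL3 ranked 771st.

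The genes flanking CGL1 and CGL2 took several courses, of which the one at CC1G_15044 was most like CGL1 (r = 0.940 over the 10 arrays) and those at CC1G_05002 (r = 0.043) and CC1G_05006 (r = -0.091) least. CC1G_05002, a predicted protein beside CGL1, was higher in initials than in mycelium by 0.58 ± 0.0332 (adjusted p = 5.27e-06), much like CGL2. It was also higher in the mature cap than in the young fruiting body, by 0.26 ± 0.0332 (adjusted p = 0.000288), where both galectins were lower. On the other side of the pair, the aryl-alcohol dehydrogenase CC1G_05006 was higher in initials by 0.42 ± 0.0516 (adjusted p = 0.000292) and lower in the cap by 0.17 ± 0.0516 (adjusted p = 0.0203). Next to it a ribosomal protein of the large subunit (CC1G_05007) was lower in initials by 0.37 ± 0.0352 (adjusted p = 6.98e-05) and in the cap by 0.34 ± 0.0352 (adjusted p = 8.48e-05). The transcription factor TFIID subunit CC1G_15044 fell by 0.69 ± 0.0280 at the step to the cap (adjusted p = 6.09e-07).

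Beside CGL3, the hypothetical protein CC1G_13772 fell by 0.24 ± 0.0284 at the step to the cap (adjusted p = 0.00017), and the predicted protein CC1G_13771 fell by 1.27 ± 0.0628 (adjusted p = 1.6e-06). CC1G_13773, on its other side, was at or under 4 times the random-sequence controls on all arrays. The next locus tag on that side, CC1G_20015, was not on the array.

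**Figure D4:**
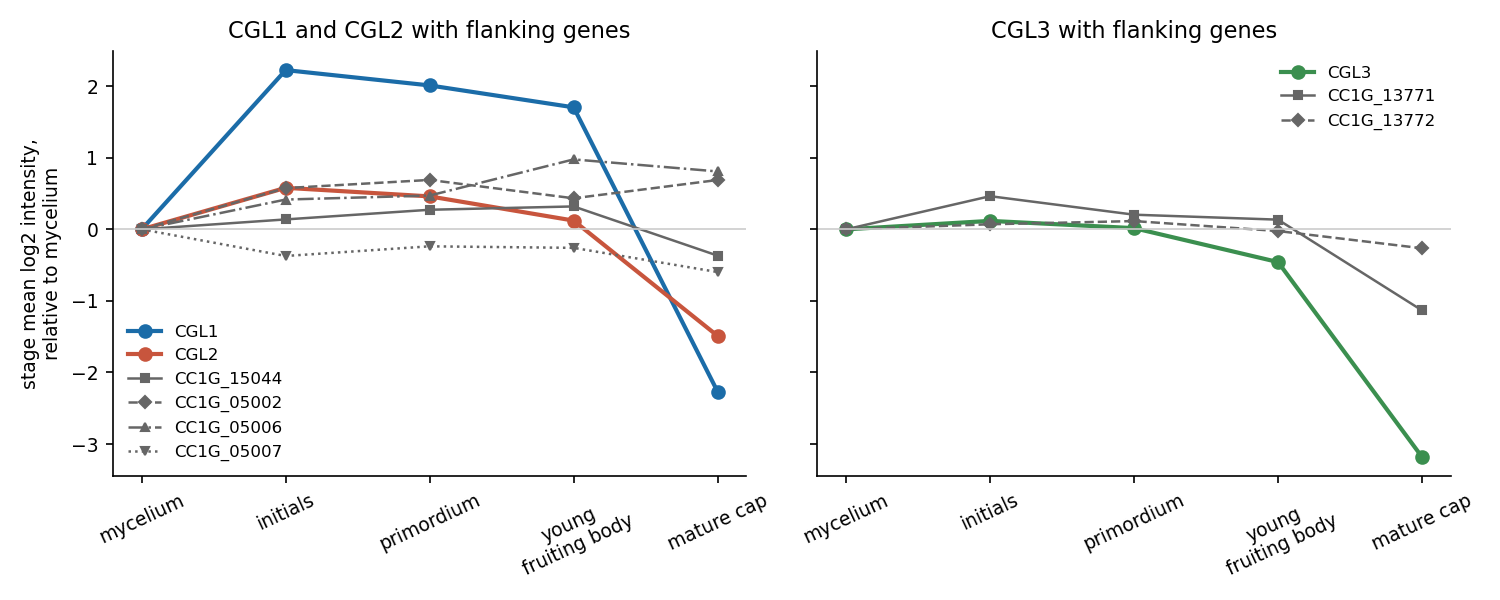
Stage mean log2 intensity relative to mycelium for CGL1 and CGL2 with 4 flanking genes (left) and for CGL3 with 2 flanking genes (right), by stage from mycelium to mature cap. The flanking gene CC1G_05002 was higher in the mature cap than in the young fruiting body by 0.26, while the changes of CGL1 and CGL2 were -3.97 and -1.61.

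Other genes listed by lectin or toxin words in their product name differed among themselves in their course. The list had 9 genes with the 3 galectins and 6 without them. It also took up a killer toxin resistant protein (CC1G_08725), whose name marks it as neither lectin nor toxin. In initials relative to mycelium, 2 of these 6 rose, 1 fell and 3 did not pass, when 37.5% of all genes were called higher and 33.7% lower; their median change was 0.10 against 0.022 over all genes. A hemolysin (CC1G_02801), of a class of pore-forming proteins, had 8649 and 8133 in initials and 2664 and 2455 in mycelium, a rise of 1.71 ± 0.0699 (adjusted p = 9.79e-07). Lectin PVL (CC1G_03091) had 3699 and 3701 in initials and 1670 and 1787 in mycelium, a rise of 1.10 ± 0.114 (adjusted p = 0.000112). The toxin biosynthesis protein CC1G_14275 fell by 0.35 ± 0.0417 (adjusted p = 0.000231), and its groups did not overlap.

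In mature caps relative to young fruiting bodies, 2 of the 6 rose, 3 fell and 1 did not pass, when 38.3% of genes were called higher and 40.7% lower; their median change was -0.36 against 0.024 over all genes. The hemolysin fell by 1.76 ± 0.0699 (adjusted p = 5.41e-07) and lectin PVL changed by -1.21 ± 0.114 (adjusted p = 4.82e-05), as the galectins did. The other gene that fell was the killer toxin resistant protein CC1G_08725, by 0.64 ± 0.0758 (adjusted p = 0.000177). A ricin B lectin (CC1G_11246), named for the sugar-binding part of ricin, ran against the galectins. It had 11491 and 11956 in mature caps against 1438 and 1416 in young fruiting bodies, a rise of 3.04 ± 0.0655 (adjusted p = 3.79e-08). The gene listed simply as lectin (CC1G_04692) had 11281 and 11401 in caps and 11701 and 12269 in young fruiting bodies, a change of -0.079 ± 0.0327 (adjusted p = 0.0602).

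**Figure D5:**
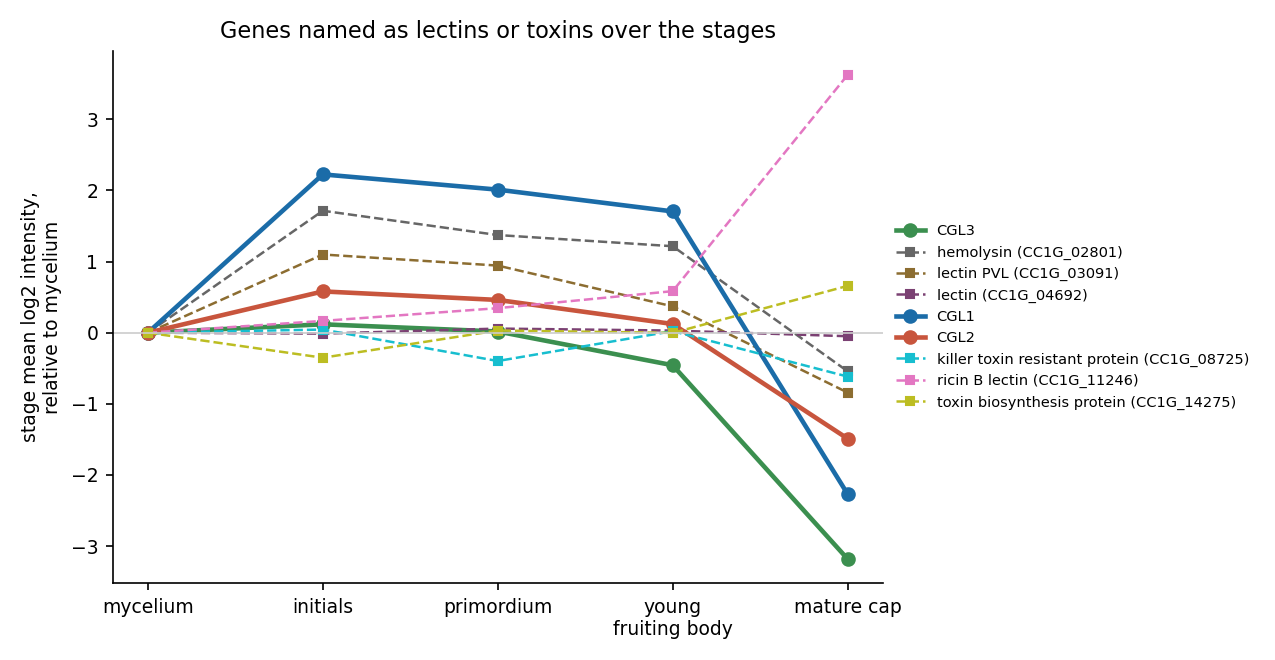
Stage mean log2 intensity relative to mycelium for the 9 genes listed by lectin or toxin words in their product name, with CGL1, CGL2 and CGL3 as solid lines. The killer toxin resistant protein CC1G_08725 is among them. From young fruiting body to mature cap the galectins changed by -3.97 to -1.61 while the ricin B lectin CC1G_11246 rose by 3.04.

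Lists by product name, for galactose, chitin, sphingolipids and glycosyl transfer, were counted beside the share of all genes called. That share was 37.5% higher and 33.7% lower in initials than in mycelium, and 38.3% higher and 40.7% lower in the cap than in the young fruiting body. Whether the listed genes act on sugars that galectins bind was not tested, and many are mannosyltransferases. Of 4 galactose-linked genes, 2 were higher and 1 lower in initials than in mycelium, and 2 were higher and 2 lower in the cap than in the young fruiting body. The lower call in initials was lost without replicate 1 or 2 of mycelium or replicate 1 of initials, which left 0. A galactose-1-epimerase (CC1G_11362), which interconverts the forms of galactose, rose by 2.60 ± 0.0475 in initials (adjusted p = 3.25e-08) and by a further 0.33 ± 0.0475 in the cap (adjusted p = 0.000472). A galactan 1,3-beta-galactosidase (CC1G_03773) fell by 2.38 ± 0.128 in the cap (adjusted p = 2.43e-06). Of 30 chitin genes, whose polymer yields the fragments that CGL3 binds, 11 were higher and 14 lower in initials than in mycelium (median -0.067), or 36.7% and 46.7% of the list. In the cap 18 were higher and 7 lower than in the young fruiting body (median 0.18), or 60.0% and 23.3%. A class III chitinase (CC1G_04407), which cuts chitin, rose by 3.15 ± 0.0869 in the cap (adjusted p = 1.06e-07), and a chitin deacetylase (CC1G_10511) fell by 1.84 ± 0.0441 (adjusted p = 5.77e-08).

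Of 11 sphingolipid genes 3 were higher and 4 lower in initials than in mycelium (median -0.058), or 27.3% and 36.4% of the list, against 37.5% and 33.7% of all genes. In the cap 3 were higher and 6 lower than in the young fruiting body (median -0.091), or 27.3% and 54.5%, against 38.3% and 40.7% of all genes. Without replicate 2 of the young fruiting body 3 sphingolipid genes were lower in the cap. A sphingomyelin phosphodiesterase (CC1G_02845), which breaks such lipids down, rose by 4.36 ± 0.0443 in the cap (adjusted p = 3.78e-09). Of the others with that product name, CC1G_07717 rose by 3.33 ± 0.0280 and CC1G_02835 fell by 0.91 ± 0.0427. The lowest called change of the list was that of a sphingolipid C9-methyltransferase (CC1G_02451), at -1.11 ± 0.0344. Of 25 glycosyl transfer genes, of which 1 was at or under 4 times the controls on all arrays, 5 were higher and 8 lower in initials than in mycelium (median -0.047), or 20.0% and 32.0% of the list. In the cap 6 were higher and 16 lower than in the young fruiting body (median -0.37), or 24.0% and 64.0%. The 6 include the gene at or under 4 times the controls, CC1G_07940 (1.13 ± 0.357, adjusted p = 0.0227), so its rise is not a reliable one. GPI mannosyltransferase 2 (CC1G_07396), of membrane anchor synthesis, fell by 3.44 ± 0.0521 in the cap (adjusted p = 1.1e-08).

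The deposited RMA values had a median intensity of 3268 to 3403 per array, with random-sequence controls at 22.4 to 29.1. These values were already processed, with normalization settings not given, so like medians do not show that the arrays or RNA inputs were alike. The galectins were 22.3 to 1006 times those controls, so every value lay well above background. Marker genes differed between the stages. The 5 genes with a hydrophobin product name, a class of coat proteins of aerial hyphae, summed to 11514 and 10950 in caps against 59312 and 61436 in mycelium. All 5 were called lower in caps than in mycelium (median change -2.50), as were 40% of all genes. The sum hides CC1G_13822, which changed by only -0.37 there. In initials relative to mycelium it was called higher, by 0.091 (adjusted p = 0.034), while the other 4 were called lower. The 9 genes listed for meiosis, which takes place in the gills, summed to 34032 and 34605 in caps against 44266 and 45119 in young fruiting bodies. They summed to 33232 and 33340 in mycelium, so the sum does not single out meiosis. In caps 3 of them were called higher than in young fruiting bodies and 5 lower, or 33.3% and 55.6% of the list. Of all genes 38.3% were called higher and 40.7% lower in that comparison. The 20 genes with a chitinase or beta-1,3-glucanase product name summed to 164152 and 166563 in caps against 112992 and 112958 in young fruiting bodies. Among them 1 was at or under 4 times the controls on every array. Both enzyme classes are linked to cap autolysis, but a part in it was not tested for any of these genes. Of these 20 genes 10 were called higher in caps than in young fruiting bodies, 5 lower and 5 did not pass. That is 50% and 25% of the list, against the same 38.3% and 40.7% of all genes. The sum thus does not describe every member. Tissue composition was not measured, and its part in the galectin differences was not tested. In such bulk samples fewer cells that express a galectin and less galectin RNA per cell cannot be told apart. The 10 arrays shared 1 slide, filled from mycelium to mature cap, so a stage cannot be told apart from its place on the slide.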

How the data were processed

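Per the file headers, the authors deposited a linear RMA intensity value for each gene and each of 2 probe blocks per array, with a count of the probes behind it (other columns), and a product name per gene. Software, background and normalization settings and the genome build are not given in the sources used here. A second deposited table, for all samples together, held the geometric mean of the blocks (largest relative difference 4.98e-08%). The deposited standard errors have no stated scale and were not used.

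The log2 values of both blocks were averaged, with no further normalization, pseudocount or filter. All 10 arrays entered 1 fit in limma 3.58.1 (R 4.3.3) with stage as the only term and 5 residual degrees of freedom, and p-values were adjusted over 13320 genes with a threshold of 0.05. The fit was tested on simulated data. Groups and replicate numbers came from the sample titles. Probe sequences were not used here, so signal shared between the related CGL1 and CGL2 was not tested.

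Named genes were the 3 galectins, up to 2 genes on each side, for each galectin the 5 nearest profiles and 3 nearest named ones by Pearson's r, and the largest and smallest called change of each product list; of these the text gives a part. Neighbours came from RefSeq assembly CC3, in which 13318 genes matched by locus tag. The genes and lists were chosen with earlier results of these data known. Alternatives are given in the closing section. Several leave the log2 change unchanged by construction, so they can alter only the call. Among them are the replicate block, the trended prior, fitting only the 2 stages, averaged pairs and arrays omitted from other stages.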

Additional observations from a re-analysis of the deposited data

How the results depend on the processing

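Over the 4 steps and mature cap against mycelium, 294 of 315 alternative galectin values kept direction and side of the threshold. Calls were lost in 9, gained in 12, and 0 changed sign. Over all 10 stage pairs 585 of 630 kept both, 19 lost the call, 23 gained it and 3 changed sign. Settings that keep the stage means cannot change direction. Every run kept the calls of mature cap against young fruiting body and mycelium, and of initials against mycelium for CGL1 and CGL2. Replicate pairs of mycelium, initials and young fruiting body differed by 1.10 to 1.30 times the noise between blocks, against 2.52 in primordia and 2.61 in the mature cap. Whether the closer pairs are fully independent was not tested. Averaging these closer pairs lost the calls of CGL1 from initials to primordia (-0.21, adjusted p = 0.241) and of CGL1 and CGL2 from primordia to young fruiting bodies (-0.31, adjusted p = 0.13, and -0.34, adjusted p = 0.0885). It left 1684 and 2269 genes called in these steps, not 6397 and 6499. With probe block 1 alone CGL1 changed by -0.19 from initials to primordia (adjusted p = 0.105). With a trended robust prior CGL2 passed in that step (-0.12, adjusted p = 0.0298). CGL3 passed with only the 2 stages compared (0.12 in initials, -0.47 in young fruiting bodies) and, in young fruiting bodies minus primordia, with 100 added to the intensity (-0.47, adjusted p = 0.0451). In young fruiting bodies minus mycelium CGL2 passed with quantile normalization (0.15, adjusted p = 0.0304), the trended robust prior (adjusted p = 0.0179) and only the 2 stages (adjusted p = 0.0153), and CGL3 with probe block 1 alone (-0.51, adjusted p = 0.0431), with 100 added (-0.45, adjusted p = 0.0356) and with only the 2 stages (adjusted p = 0.000365). CGL3 in young fruiting bodies minus initials was lost with probe block 2 alone (-0.55, adjusted p = 0.0584) and with averaged pairs (adjusted p = 0.298).

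Leaving out each replicate in turn gave 0.11 to 0.13 for CGL3 in initials minus mycelium. In primordia minus initials it gave -0.26 to -0.17 for CGL1, -0.15 to -0.093 for CGL2 and -0.13 to -0.076 for CGL3, and in young fruiting bodies minus primordia -0.50 to -0.45 for CGL3. CGL3 in primordia minus mycelium, not called in any setting, changed sign with probe block 1 alone (-0.0083), with median centring (-0.00058) and without primordium replicate 2 (-0.0082), with a range of -0.0082 to 0.041 over the omitted replicates. Counts moved with averaged pairs: in initials the galactose list had 1 up and 0 down, sphingolipids 2 down, and glycosyl transfer 3 up and 3 down; in the cap galactose had 1 down and sphingolipids 3 down. Leaving out replicates gave 0 to 1 galactose genes down in initials and 3 to 6 sphingolipid genes down in the cap. The within-array tests passed under all 3 alternatives (exact permutation p = 0.00106 to 0.00741).

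With the replicate number as a block CGL2 in young fruiting bodies minus mycelium passed (0.12, adjusted p = 0.0494); no other galectin call changed, and 9496 genes were called in initials against mycelium in place of 9476. Deviations of same-numbered samples correlated at -0.024 to 0.50, above 0.1 in 8 of 10 stage pairs. Whether the numbers pair samples was not tested. The number of arrays limits the precision.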

Other observations

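Likeness depended on its measure. Ranked by the root mean square difference of centred log2 values, a measure added after the data were seen, instead of Pearson's r, the 5 nearest genes shared 0 with the 5 nearest by r for CGL1, 1 for CGL2 and 1 for CGL3. By that measure the named genes nearest to CGL1 were a histone-lysine N-methyltransferase (CC1G_15399, 0.40 log2 units), histone deacetylase 8 (CC1G_05302, 0.43) and a cyclopropane-fatty-acyl-phospholipid synthase (CC1G_05048, 0.45). This synthase had a stage mean log2 intensity of 8.27 in the mature cap, against 12.04 in the young fruiting body.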
